A study of Drosophila melanogaster with 4 samples.

Results

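Transcripts of Drosophila melanogaster females were compared after mating with wild-type males, which pass sperm, and after mating with spermless males. Proteins of the male accessory gland (Acps) reached the female in both matings. A probe set entered the comparison if the highest of its 4 values reached -0.18, the median over the whole table. That rule kept 7345 of 14009 probe sets, of which 6534 carried 1 gene symbol and stood for 6201 genes. The probe set just inside the limit had a highest value of -0.1778 and the probe set just outside it -0.1783.

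Whole females were measured on an Affymetrix Drosophila GeneChip in 4 groups. Every female came from an inbred wild-type Canton S stock. Wild-type mates were Canton S males. The spermless mates, called sons of tudor in the labels, had Canton S fathers and bw sp tud1 mothers, and their accessory glands were intact and made Acps. The 2 other groups serve here only as reference points: virgin females, and mates of DTA-E males, which came from a transgenic stock of Canton S background and lack sperm and the Acps of main cells, 96% of the gland's secretory cells. Females were 3 to 4 days old, kept at 25 °C and, if mated, frozen 1 to 3 h afterwards. Per the labels, 50 flies were drawn for each treatment and divided over 2 RNA extractions, and 4 chips were hybridised. The value table has 1 column for each treatment, so there was no replicate spread and no test, and every value below describes 1 pooled column or the difference of 2. Wild-type and spermless males also differed in their mothers' genotype, so the absence of sperm and the males' background cannot be told apart.

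In Drosophila, mating brings on egg laying, reduces the female's willingness to mate again and alters her feeding and gut. Seminal proteins start many of these responses within hours. Sperm prolong them, partly because sex peptide is carried on stored sperm and released from it gradually. The whole fly is a mixture in which ovary, fat body, muscle, midgut and nervous tissue contribute RNA together.

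Levels are log values read as log2, in which 0 is the median of the kept probe sets of that column. The log base is not stated, and on another base each fold given here would differ. Where 4 levels follow each other, they are in the order spermless, wild-type, virgin and DTA-E. Differences are the wild-type column minus the spermless column, so a negative value is lower after mating with wild-type males. A difference of 1 is 2-fold and one of 0.585 is 1.5-fold.

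Genes of energy metabolism, muscle and digestion were lower in mates of wild-type males than in mates of spermless males, and very few genes were higher by a comparable amount. Of 6201 genes, 22 were at least 2-fold lower (0.355%) and 0 were at least 2-fold higher (0%). At 1.5-fold, 67 were lower (1.08%) and 6 were higher (0.0968%). Small differences ran the other way: 3437 genes were higher by any amount (55.4%) and 2764 lower (44.6%). This lean depended on the scaling: without centring the columns 66.4% were higher, and with the intensity trend removed 49.2%. The median difference was 0.01, the middle part of the distribution from the 25th to the 75th percentile ran from -0.05 to 0.06, and 98.8% of the genes were within 1.5-fold. Where a gene had several probe sets, which held for 294 genes and 627 probe sets, their differences had an SD of 0.09. That SD covers the probes and not the pools of flies, and 72 of the 73 genes past 1.5-fold rested on a single probe set. In the fifth of the genes with the highest mean level, 46 of 1240 were at least 1.5-fold lower, so most of these differences were in abundant transcripts.

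**Figure D1:**
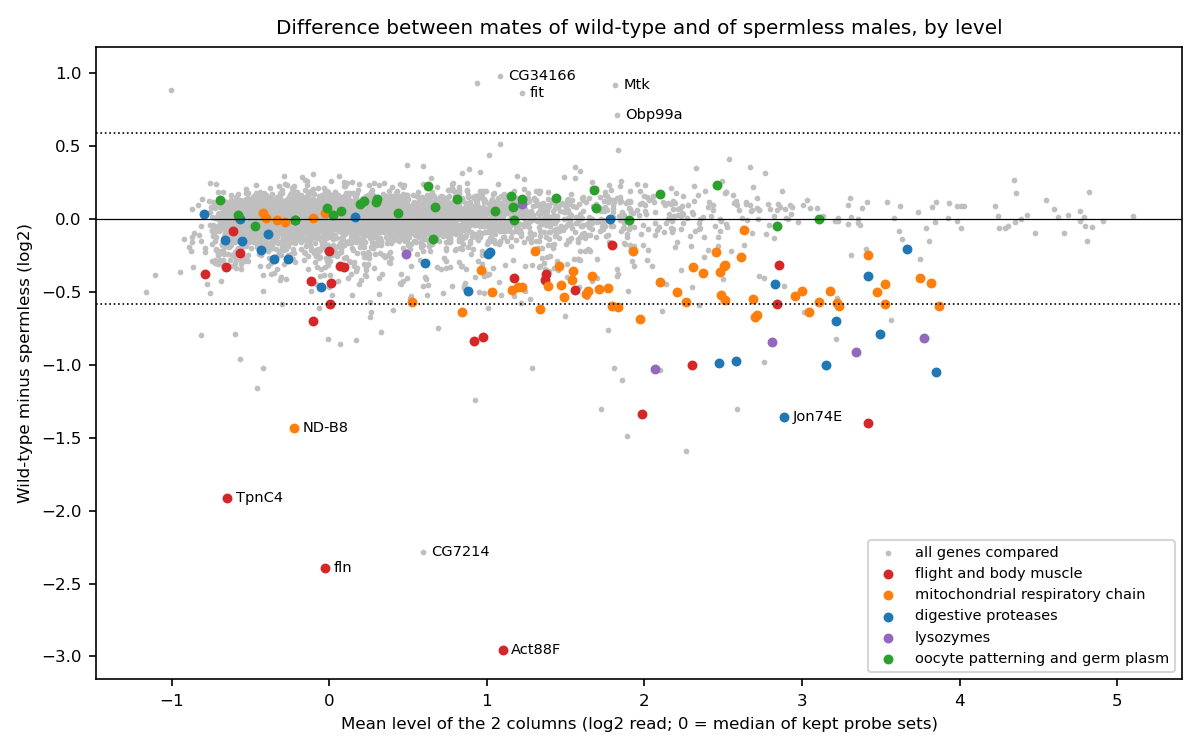
Wild-type minus spermless difference (log2, vertical) of 6201 genes against their mean level in the 2 columns (log2 read, horizontal), 1 point a gene, with members of 5 gene lists in colour and dotted lines at 1.5-fold. The points below the lower line outnumber those above the upper line, 67 to 6, and respiratory chain genes lie in a band near -0.5 over a wide range of levels.

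The respiratory chain was lower as a whole set of complexes. This chain, in the inner mitochondrial membrane, passes electrons from NADH and succinate to oxygen and uses the resulting proton gradient to make ATP. Of 62 measured nuclear genes for its subunits 57 were lower and 12 passed 1.5-fold. The median was -0.47, against 44.6% lower and a median of 0.01 over all genes. ND-B8, a small subunit of complex I (NADH dehydrogenase), stood at 0.49 with spermless mates and -0.94 with wild-type mates, beside 0.18 in virgins and -0.12 with DTA-E mates. Its difference of -1.43 was 2.70-fold and exceeded that of every other subunit. ND-MWFE, of the same complex, had 3.04, 2.38, 2.80 and 2.98, a difference of -0.66. In both genes the spermless column was the highest of the 4 and the wild-type column the lowest.

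The 5 complexes had similar differences. All 26 measured genes of complex I were lower, with a median of -0.47, and so were all 3 of complex II (succinate dehydrogenase), with a median of -0.50. Complex III, which reduces cytochrome c, had 6 of 6 lower with a median of -0.53, led by Cyt-c1, its cytochrome subunit, at -0.69 and RFeSP, the Rieske iron-sulphur protein, at -0.60. Complex IV (cytochrome c oxidase) had 8 of 8 lower with a median of -0.50, although COX7A, at -0.08, was close to 0. In complex V, the ATP synthase, 12 of 12 were lower with a median of -0.52. ATPsynB, of its stalk, stood at 3.04 with spermless mates and 2.36 with wild-type mates, beside 2.73 in virgins and 2.67 with DTA-E mates, and blw, its alpha subunit, at 4.17, 3.57, 3.84 and 3.75. Their differences were -0.67 and -0.60. All members of the 5 complexes were also lower with the columns as deposited and after quantile normalization. In the latter the medians were smaller in size and less alike, from -0.46 in complex II to -0.32 in complex IV. The median of the whole chain was then -0.37, and ATPsynB differed by -0.48.

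Paralogues whose symbols end in L did not follow their namesakes. Of 17 on the array 7 passed the filter, with 5 higher and 2 lower, differences from -0.02 to 0.04 and a median of 0.01. Their levels were below the median of the kept probe sets, with a median of -0.33 in both columns. Such paralogues are often testis-biased in this species, and at this signal a difference may not be detectable.

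Other mitochondrial genes divided by function. All 15 measured genes for mitochondrial carriers and enzymes of the tricarboxylic acid (TCA) cycle were lower, 4 past 1.5-fold, with a median of -0.27. With the columns as deposited or after quantile normalization 13 of the 15 were lower, and in the latter the median was -0.16. The 8 TCA cycle enzymes alone had a median of -0.45. The aconitase gene mAcon1 stood at 3.33 with spermless mates and 2.69 with wild-type mates, beside 3.03 in virgins and 2.97 with DTA-E mates. Its difference was -0.64, and those of Idh3g and Idh3a, subunits of NAD-dependent isocitrate dehydrogenase, were -0.67 and -0.63. Mpcp1, which imports phosphate for ATP synthesis, had 2.63, 1.14, 1.97 and 1.67, a difference of -1.49. By contrast, the 64 genes for mitochondrial ribosomal proteins had 26 higher, 38 lower and a median of -0.01, a sign that turned to 0.01 with the columns as deposited, and 0 were past 1.5-fold. Cytosolic ribosomal protein genes were at 17 higher and 15 lower, with a median of 0.01.

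**Figure D2:**
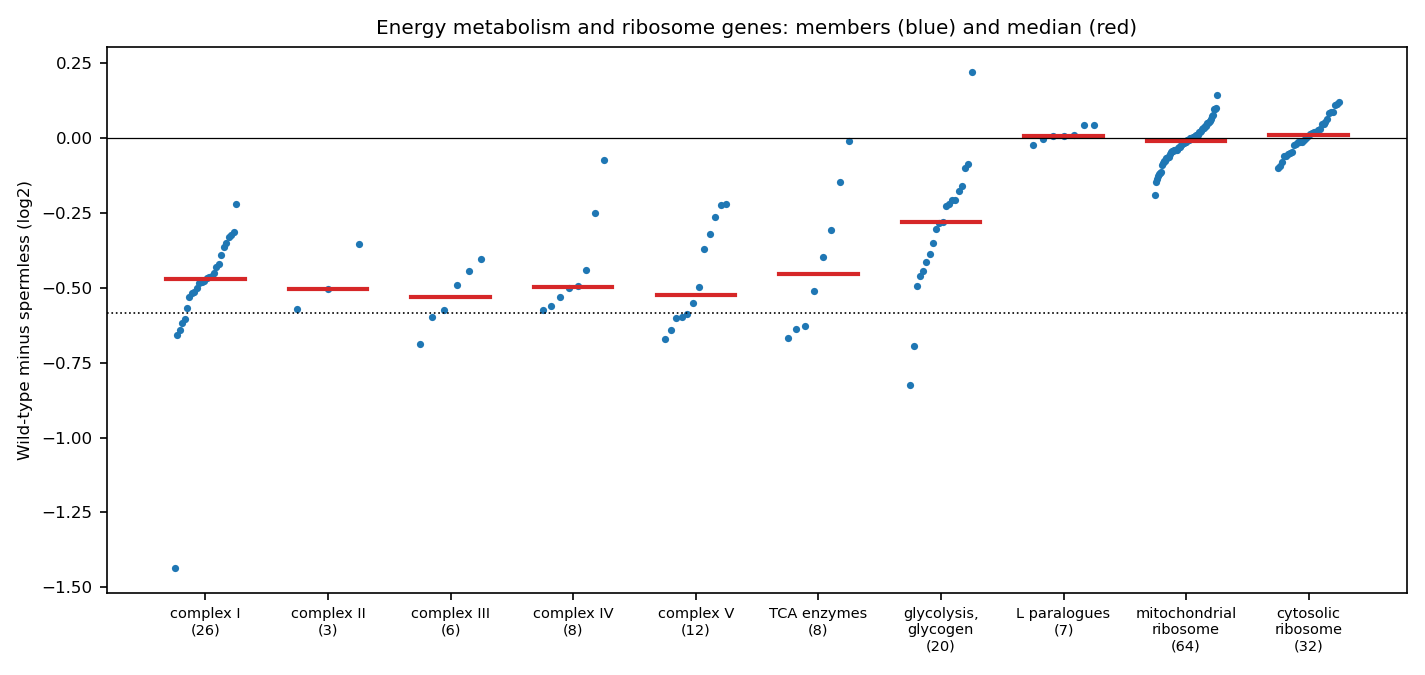
Wild-type minus spermless difference (log2, vertical) for members of the 5 respiratory complexes, TCA cycle enzymes, glycolysis and glycogen genes, L paralogues and the mitochondrial and cytosolic ribosome, with 1 blue point a gene, a red bar at the median and the number of genes in brackets. Medians of the 5 complexes are between -0.53 and -0.47, whereas both ribosomes and the L paralogues are centred within 0.01 of 0.

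Glycolysis and glycogen genes were lower by less. Of 20 measured, 19 were lower and 2 of these past 1.5-fold, with a median of -0.28. Ald1, the aldolase gene, stood at 3.62 with spermless mates and 2.80 with wild-type mates, beside 3.46 in virgins and 3.19 with DTA-E mates, a difference of -0.82. Gapdh1, encoding glyceraldehyde-3-phosphate dehydrogenase, differed by -0.69 and Glyp, the glycogen phosphorylase gene, by -0.49. The wild-type column was the lowest of the 4 in 19 of the 20 genes. The exception in direction was Pepck1, encoding an enzyme of gluconeogenesis, which was higher by 0.22, with 0.57 with spermless mates and 0.79 with wild-type mates, beside 1.18 in virgins and 0.89 with DTA-E mates. Tret1-1, a trehalose transporter gene, differed by -0.61, with levels of 1.32 after spermless and 0.70 after wild-type males. Without the filter its difference was -0.34.

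The largest difference of a single gene was in muscle. Flight muscle consists of actin thin filaments, myosin thick filaments and Z-discs that anchor them, and the muscle list had 26 of 26 measured members lower, 10 past 1.5-fold, with a median of -0.43. Thick filament genes, including both myosin light chains and the flightin gene fln, had a median of -1.34 over 5 members, and thin filament genes one of -0.70 over 8. Genes for Z-disc and connecting proteins had a median of -0.39 over 10, from -0.70 in Msp300 to -0.08 in sls, the titin-like gene. Without the filter, Msp300 differed by only -0.23. Act88F, the actin of indirect flight muscle, stood at 2.58 with spermless mates and -0.38 with wild-type mates, beside 1.28 in virgins and 0.65 with DTA-E mates. The 2 columns compared here are thus its extremes, 7.77-fold apart. Act79B, an actin of other muscles, had 2.80, 1.80, 1.90 and 1.81, with a wild-type minus virgin difference of -0.10 and the spermless column apart from the other 3. Prm, the paramyosin gene, at 1.34, 0.50, 0.68 and 0.67, had the spermless column apart in the same way. RNA came from whole flies, in which fewer cells of a type and less RNA per cell cannot be told apart.

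Secreted enzymes of the gut and salivary gland were lower as well. Lysozymes break down bacterial cell walls, and in flies those of this family serve mainly digestion. Of 6 measured lysozyme genes 5 were lower, 4 past 1.5-fold, with a median of -0.83. LysC stood at 2.58 with spermless mates and 1.55 with wild-type mates, beside 2.47 in virgins and 1.86 with DTA-E mates, a difference of -1.03. LysD (-0.91), LysE (-0.84) and LysB (-0.82) were close to it, but these genes are nearly identical in sequence and may share probes, so they may not be separate observations. LysP, a salivary gland member, differed by -0.24 and LysS, by 0.10, was the member that was higher. LysB to LysE had the order spermless, virgin, DTA-E and wild-type from high to low.

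All 8 trypsin genes were lower (median -0.37), and so were 13 of 14 Jonah protease genes (median -0.29). With the columns as deposited 6 and 12 were lower, and after quantile normalization 7 and 12. The trypsin gene epsilonTry stood at 2.97 with spermless mates and 1.98 with wild-type mates, beside 2.91 in virgins and 2.49 with DTA-E mates, a difference of -0.99. Its neighbours alphaTry (-0.999) and betaTry (-1.05) are like it in sequence and may share probes with it. CG12374, which is in none of the lists, had 3.06, 1.47, 2.90 and 2.94 and a difference of -1.59. tobi, an alpha-glucosidase gene that responds to insulin and adipokinetic hormone, had 0.24, -0.37, 1.36 and 0.34. In tobi, as in Mal-A1 at 1.80, 0.77, 2.96 and 1.76, the virgin column was the highest, the mates of DTA-E and spermless males were close to each other and the wild-type column was lowest.

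**Figure D3:**
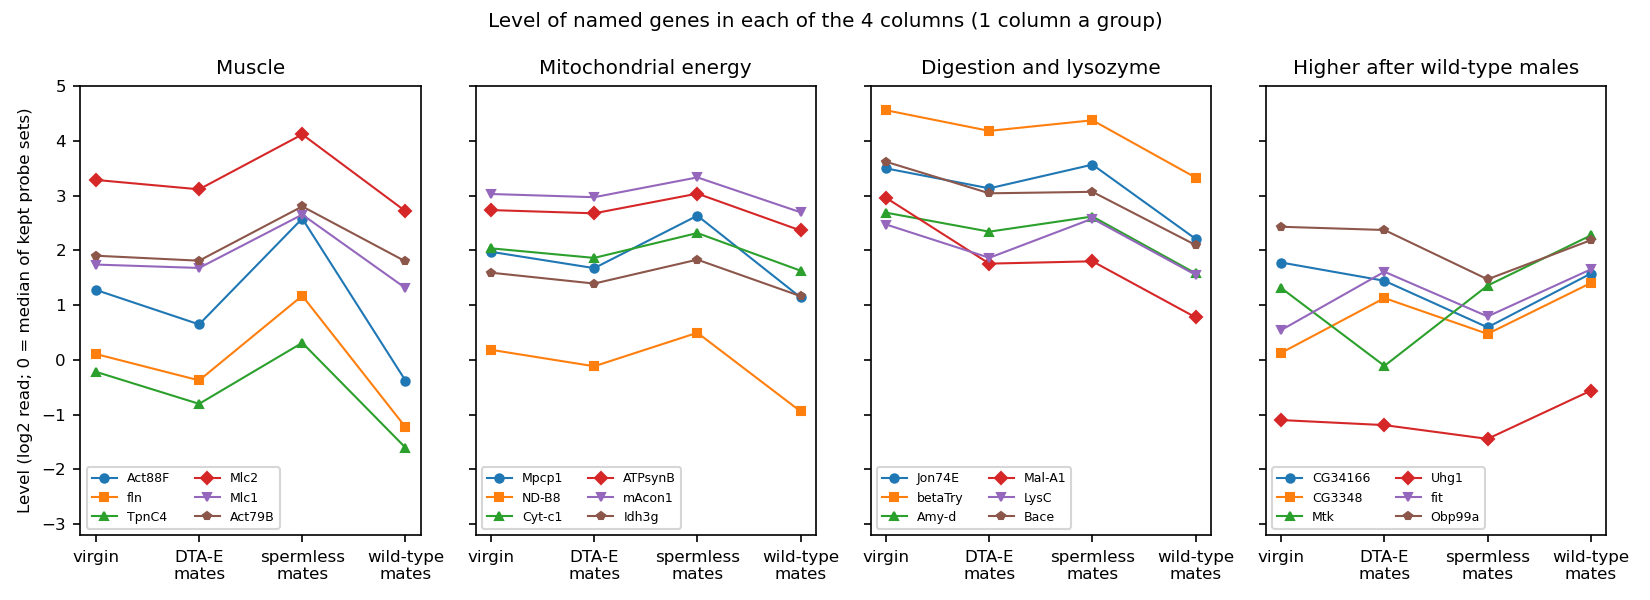
Level (log2 read, vertical; 0 is the median of kept probe sets) of 24 named genes in the 4 columns (horizontal), in panels for muscle, mitochondrial energy, digestion and lysozyme, and genes higher after wild-type males, with 1 point a column and lines joining the points of a gene. In muscle and energy genes the spermless column is the highest and the wild-type column the lowest or level with the virgin column, whereas Mal-A1 and Bace are highest in virgin females.

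The other columns show where each of the 2 compared columns stood. The wild-type column was the lowest of the 4 in 61 of the 67 genes at least 1.5-fold lower, the spermless column was the highest in 53, and 47 had both. Choosing genes for this difference favours such an order, and over all 6201 genes the counts were 1650, 1362 and 520. Measured from virgin females, 17 of the 67 were at least 1.5-fold higher in the spermless column, 31 were at least 1.5-fold lower in the wild-type column and 3 were both. In 36 the wild-type column was within 1.5-fold of the virgin column.

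Over all measured members of a list, without regard to the size of the difference, the lists stood differently against virgin females. In the muscle list the spermless column was the highest in 26 of 26 genes and the wild-type column the lowest in 19, with median differences from virgin females of 0.39 and -0.09. In the respiratory chain these counts were 56 and 53 of 62, and the medians 0.21 and -0.25. Carbohydrate digestion genes had the spermless column highest in 1 of 12 and the wild-type column lowest in all 12, with medians of -0.38 and -0.90. Digestive proteases had 15 and 16 of 26, with medians of 0.10 and -0.21. The 3 cuticle genes past 1.5-fold, Acp1, Acp65Aa and Cpr49Ae, were chosen by size. Their median differences from virgin females were 1.15 in the spermless column and 0.07 in the wild-type column. Acp65Aa passed the filter only through the spermless column, where it was highest, so its place among the 3 is not independent of the filter. By list, the 67 genes divide into 10 of muscle, 16 of mitochondria, 2 of glycolysis, 15 of the gut, 3 of cuticle and 21 others, of which 19 are known by an annotation number.

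CG7214 and CG7203 were also close to the virgin level in the wild-type column. CG7214, the direct neighbour of Acp1, stood at 1.74 with spermless mates and -0.55 with wild-type mates, beside -0.60 in virgins and -0.18 with DTA-E mates. CG7203 had 3.24, 1.93, 1.93 and 2.03, so its difference of -1.31 came with equal wild-type and virgin levels to 2 decimals. With the virgin column in place of the spermless column, Acp1, CG7214, CG7203 and Cpr49Ae were no longer lower in the wild-type column. Nplp3, which encodes a neuropeptide-like precursor, had 3.25, 2.27, 2.65 and 2.74 and a difference of -0.98. The cuticle list as a whole, with 28 of 42 members higher and a median of 0.02, did not share these 3 genes' direction.

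**Figure D4:**
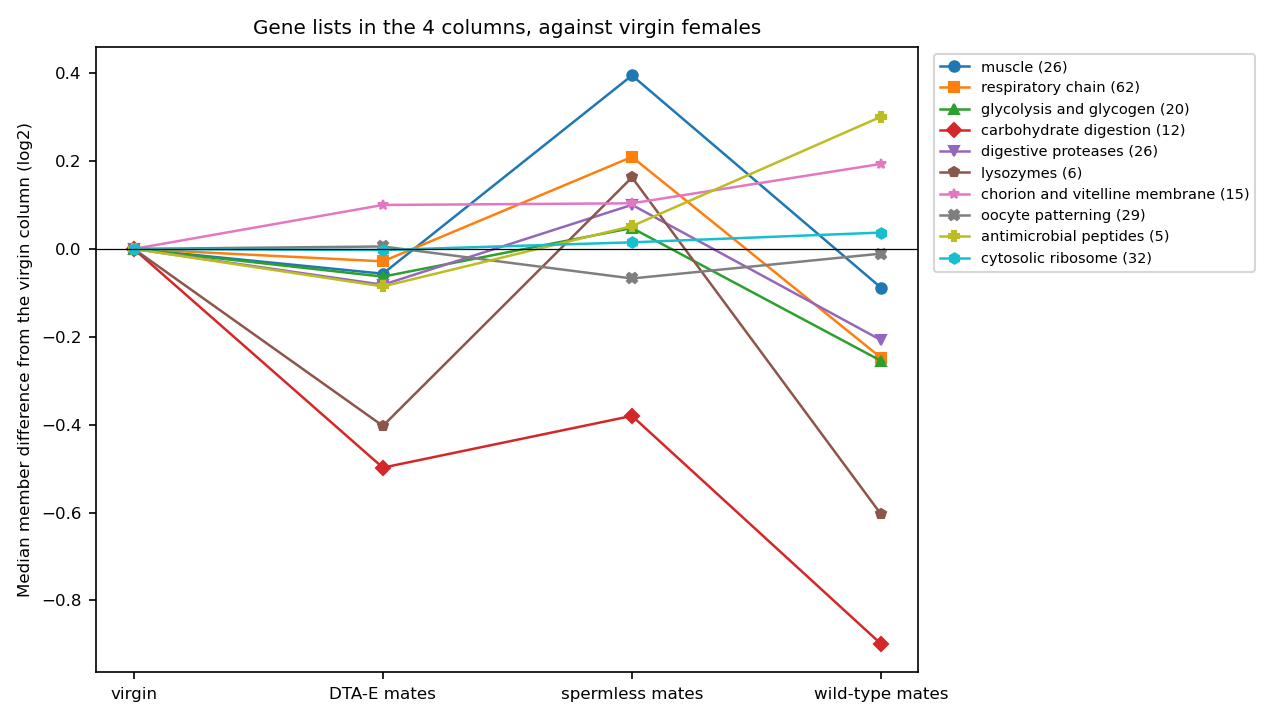
Median difference of list members from the virgin column (log2, vertical) in each of the 4 columns (horizontal), for 10 gene lists with the number of measured genes in brackets. Muscle and respiratory chain lines peak in the spermless column, the carbohydrate digestion line is lowest in the wild-type column at -0.90, and the cytosolic ribosome line is flat.

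Some lower genes sat next to each other in the genome. Of 66 lower genes that could be placed, 10 (15.2%) had a directly neighbouring protein-coding gene that was also at least 1.5-fold lower. Of the 4734 genes with a direct neighbour among the genes compared, 64 (1.35%) lay next to such a lower gene. The adjoining genes were Acp1 with CG7214, alphaTry with epsilonTry and betaTry, LysB with LysD and LysE, and Jon65Aiv with Jon65Aiii. All but the first group are tandem families of like sequence, in which probes may be shared.

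The genes higher after wild-type males were few, 6 at 1.5-fold, and of different kinds. Mtk, encoding the antifungal peptide metchnikowin, stood at 1.36 with spermless mates and 2.27 with wild-type mates, beside 1.31 in virgins and -0.11 with DTA-E mates, a difference of 0.92. CG34166 had 0.59, 1.57, 1.78 and 1.44, a difference of 0.98. Obp99a, an odorant binding protein gene, had 1.47, 2.18, 2.43 and 2.37, a difference of 0.71. In the last 2 genes the spermless column stood below the other 3, and against virgin females the wild-type column was lower rather than higher.

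In fit, a female-biased fat body gene whose product is linked to satiety, levels were 0.79 with spermless mates and 1.65 with wild-type mates, beside 0.54 in virgins and 1.61 with DTA-E mates. CG3348 had 0.47, 1.40, 0.13 and 1.13. Both thus had mates of DTA-E and of wild-type males high and virgin females and mates of spermless males low, with wild-type minus spermless differences of 0.86 and 0.93. Uhg1, the host gene of small nucleolar RNAs, had -1.44, -0.56, -1.10 and -1.19 and a difference of 0.88, at a level that was low in all 4 columns. It passed the filter only through the wild-type column, where it was highest, so its place among the 6 is not independent of the filter. Under the stricter filter it was left out and 5 genes were at least 1.5-fold higher. Among the 6 genes the wild-type column was the highest in 4 and the virgin column in 2.

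Of 5 antimicrobial peptide genes 4 were higher, and the median was 0.18, or 0.04 without the filter. DptB, a diptericin gene, stood at 0.83 with spermless mates and 1.34 with wild-type mates, beside 0.55 in virgins and -0.12 with DTA-E mates, a difference of 0.51, and Drs, the drosomycin gene, differed by 0.18. Drsl5, of the same family, differed by -0.31. Bomanins, short secreted peptides of the Toll response, had 6 of 8 lower and a median of -0.06, with 4 of 8 lower in the columns as deposited. Against virgin females their median was 0.24. PGRP-SB1, a peptidoglycan recognition protein gene, was higher by 0.36, while the recognition and signalling list was divided, with 10 of 19 higher and a median of 0.01. Serpin genes, for inhibitors of serine proteases, had 10 of 11 lower and a median of -0.10. It was -0.06 with all probe sets and 0.07 with the virgin column as reference.

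Many ovary transcripts were slightly higher in the wild-type column than in the spermless column. In flies the yolk proteins are taken up by the oocyte, follicle cells then secrete the vitelline membrane and the chorion, and the oocyte stores RNAs that pattern the embryo. Of 29 genes for oocyte patterning and germ plasm 22 were higher, with a median of 0.08, or 0.12 after quantile normalization, and of 19 for meiosis and egg activation 15 were higher, with a median of 0.05. Of all genes, 55.4% were higher, with a median of 0.01. With the intensity trend removed, the patterning median was 0.06 and the meiosis median 0.03, with 13 of 19 meiosis genes higher. In that setting 49.2% of all genes were higher. With the virgin column in place of the spermless column, the patterning median was -0.01, the meiosis median -0.04 and that of the yolk proteins and their receptor -0.03. mtrm, which encodes a Polo kinase inhibitor of oocyte meiosis, had 1.59 with spermless mates and 2.07 with wild-type mates, beside 1.81 in virgins and 2.13 with DTA-E mates, a difference of 0.47. osk, which organises germ plasm, had 2.35, 2.58, 2.34 and 2.38, a difference of 0.23, and smg, a regulator of maternal RNA, differed by 0.24.

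Eggshell genes were mixed by layer. All 4 vitelline membrane genes were higher, with a median of 0.16. Vm26Aa stood at 4.21 with spermless mates and 4.48 with wild-type mates, beside 4.17 in virgins and 4.39 with DTA-E mates. Chorion genes had 4 higher and 3 lower, with a median of 0.02, from Cp19 at 0.32 to Cp18 at -0.25. Yolk protein genes were among the most abundant transcripts and slightly higher, with Yp1 at 5.09 and 5.11, Yp2 at 4.57 and 4.63 and Yp3 at 4.27 and 4.44 after spermless and wild-type males. Together with the yolk receptor, 4 of 4 genes were higher, with a median of 0.09. Genes of DNA replication had 12 higher and 13 lower.

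Among metabolic genes outside these groups, FASN1, the fatty acid synthase gene, was higher by 0.36 and apolpp, the precursor of the lipid carrier lipophorin, by 0.33. In the 1 probe set of apolpp that passed the filter, the spermless column, at 1.42, was lowest, with 1.75 in the wild-type and 1.88 in the virgin column. With all its probe sets averaged, the difference was 0.35. The lipid list as a whole was at 12 higher and 10 lower with a median of 0.01, or -0.01 with the intensity trend removed. Heat shock and chaperone genes had 8 of 12 higher and a median of 0.07, or 0.22 after quantile normalization and 0.01 without the filter. Among them DnaJ-1, a cochaperone, was at 0.28 and the small heat shock gene l(2)efl at -0.41. Glutathione transferases, which conjugate toxins, had 13 of 20 lower and a median of -0.04, led by GstE6 at -0.58. Spermathecal protease genes, expressed where sperm are stored, had 5 of 6 lower with a median of -0.03, or 3 of 6 in the columns as deposited, and Send2 stood at -0.34 with spermless mates and -0.13 with wild-type mates, beside -1.36 in virgins and -0.38 with DTA-E mates. Proteasome genes were at 13 higher and 13 lower.

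**Figure D5:**
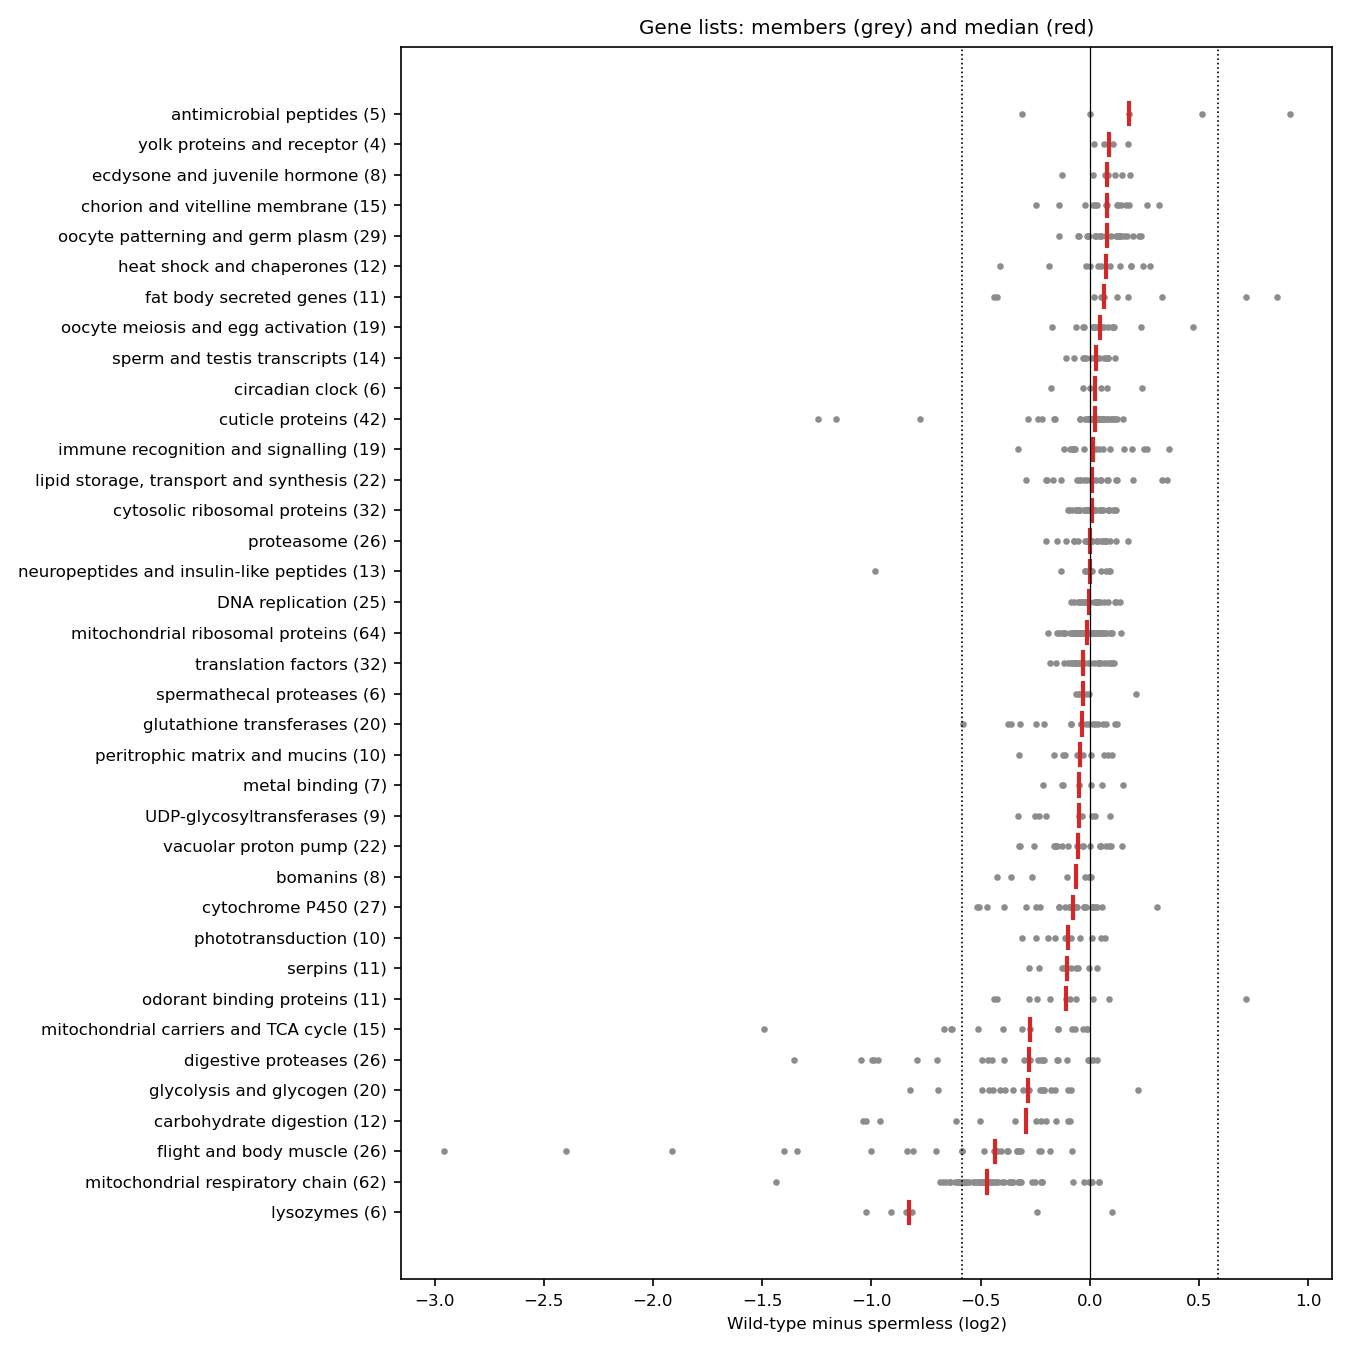
Wild-type minus spermless difference (log2, horizontal) of measured members of each gene list (vertical, number of genes in brackets, lists ordered by median), with 1 grey point a gene, a red tick at the median and dotted lines at 1.5-fold. From lysozymes at -0.83 to mitochondrial carriers and TCA cycle at -0.27, 7 lists stand below the rest, and the other list medians lie between -0.11 and 0.18.

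Transcripts of sperm could not be seen in the mates of wild-type males. Mature sperm are transcriptionally inactive and carry little RNA. Of 54 testis and sperm genes on the array, only 14 passed the filter. Taken without the filter, 13 of the 54 were higher and 41 lower, with differences from -0.13 to 0.12, a median of -0.04 and 0 past 1.5-fold. The 4642 genes below the filter had the same median, -0.04, with 21.5% higher, beside 24.1% of the testis list. Mst87F, a protein gene of the sperm tail, stood at -0.82 in both columns, and the spermatid gene dj at -2.09 after spermless and -2.17 after wild-type males. Of 24 genes listed as male accessory gland proteins, 3 were higher and 21 lower without the filter, with a median of -0.06. The 1 member that passed the filter, EbpIII, stood at 1.39 in virgin females, so it is not a male-only transcript. SP, the sex peptide gene, had -1.12 with spermless mates and -1.19 with wild-type mates, beside -1.26 in virgins and -1.21 with DTA-E mates. A transfer of these RNAs was not detectable at this signal.

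Markers of single tissues were read without the filter, as the mean of all probe sets of a gene. The 5 measured ovary markers differed by a median of 0.14, with levels from 0.74 to 2.35 after spermless males and from 0.87 to 2.58 after wild-type males. The 4 midgut markers had a median of -1.01 and levels of 1.80 to 4.37 after spermless and 0.77 to 3.33 after wild-type males, and the 3 muscle markers a median of -1.40. These markers differed by more than the wider lists. Medians were -0.29 for carbohydrate digestion, -0.28 for digestive proteases and -0.43 for muscle. Peritrophic matrix and mucin genes, also of the gut, had 4 higher and 6 lower, with a median of -0.04. Markers of neurons (4 genes, median -0.04) and of haemocytes (3 genes, median -0.09) were at or below -1.05 in both columns. Of the wider lists, 2 of 15 neuronal and 3 of 10 haemocyte genes passed the filter. The part of tissue proportions in the differences above was not tested. The 9 hybridization control probe sets were higher by 0.09 in the wild-type column and the 23 other foreign controls differed by -0.02. The 3' probes of the actin control, read for RNA integrity, exceeded its 5' probes by 2.02 in the spermless column and 1.97 in the wild-type column. The same value was 1.80 and 1.78 for eIF-4a and 1.93 and 1.84 for GAPDH. Of the reference columns, virgin females had 1.95, 1.70 and 1.79 for actin, eIF-4a and GAPDH. Mates of DTA-E males had 2.26, 1.97 and 1.97, the highest of the 4 columns for each control.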

How the data were processed

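Whole-fly RNA was hybridised to Affymetrix arrays. Values deposited by the authors are logged, were read as log2 and average near 0 in each column. The software and the way 4 chips were combined into 1 column are not given in the sources used here. The number of arrays limits the precision.

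Gene names came from the platform annotation, updated through a RefSeq table (assembly Release 6 plus ISO1 MT), whose positions served only to find neighbouring genes. Counts per chromosome and promoter motifs were not analysed here. The 44 control probe sets were left out. Columns were centred on the median of kept probe sets and probe sets of a gene averaged. Genes were counted past 1.5-fold or 2-fold, with no test. Members, the 42 gene lists and the sublists were chosen with earlier results of these data known. From the lists 11 genes taken by name were removed by identity.

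Named were the 20 highest and 20 lowest genes with a symbol, the 6 highest and lowest of any name, genes past 1.5-fold, 5 members of each list with the largest differences, and markers. LysS, Pepck1 and genes named as the smallest of a list were chosen after their values were seen. Differences of known size put into simulated data were read back, which checks the calculation and not the spread of pools, extractions or chips. Tried as alternatives were uncentred columns, quantile normalization, no filter or a stricter one, the brightest probe set, removal of a lowess trend, other thresholds and other reference columns. Python 3.11.15, numpy 2.4.6, pandas 2.3.3, statsmodels 0.14.6 and matplotlib 3.10.9 were used.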

Additional observations from a re-analysis of the deposited data

Results flagged for a closer look

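A probe set outside the gene comparison, 143609_at, which has no gene symbol in the annotation used here, was higher after wild-type males by 1.13. No named gene differed upward by as much. It stood at 0.27 with spermless mates and 1.40 with wild-type mates, beside 0.30 in virgins and -0.70 with DTA-E mates. Another unnamed probe set, 143443_at, had 0.34, 1.10, 0.06 and -0.87, a difference of 0.76. In all 811 kept probe sets without exactly 1 symbol, 6 were at least 1.5-fold lower (0.74%) and 2 higher. With 1 column a group, no other kind of unusual value could be looked for.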

How the results depend on the processing

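No paired analysis was possible because each group has 1 column, and for the same reason no replicate could be left out. Genes at least 2-fold higher numbered 1 with the columns as deposited, 2 after quantile normalization and 6 at 1.5-fold. Genes at least 2-fold lower numbered 67 at 1.5-fold and 5 at 3-fold, and between 17 and 25 under the processing alternatives. Without the muscle list they numbered 16, without the respiratory chain as well 15 and without the 3 digestive lists 17. The count at 1.5-fold lower was between 54 and 74 under the processing alternatives, and 57, 45 and 52 without the same lists, a choice that followed a look at the data. Of the 73 genes past 1.5-fold, 15 were under it after quantile normalization, 8 without the filter, 7 with the columns as deposited, 3 under the stricter filter and 0 with the trend removed.

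Of the same 73 genes, 39 were under 1.5-fold with the virgin column as reference and 49 with the DTA-E column. With the virgin column, 3 genes were 2-fold higher, 26 were 2-fold lower, 11 were 1.5-fold higher and 62 were 1.5-fold lower. With the DTA-E column, 2 were 2-fold higher, 3 were 2-fold lower and 24 were 1.5-fold lower. The sign turned against virgin females in Acp1 (0.0698), CG14500 (0.0192), CG34166 (-0.20), CG7203 (0.0004), CG7214 (0.0479), Cpr49Ae (0.26), Obp99a (-0.25), TpnC41C (0.0180) and the serpin median (0.0705), and against DTA-E mates in Cpr49Ae (0.0307), Obp99a (-0.19) and the serpin median (0.0232). Under the stricter filter the carbohydrate digestion median was -0.61 and the digestive protease median -0.46. In all, 12 of 37 list medians turned sign with the virgin column and 8 with the DTA-E column. Against the spermless column, the serpin median was the only one of them over 0.09 in size. Some were larger once turned. The bomanin median went from -0.06 to 0.24 with the virgin column and 0.41 with the DTA-E column. That of fat body secreted genes went from 0.07 to -0.13 with the virgin column. Between scalings, 8 of 37 list medians turned sign, all of them near 0. The cause of these changes was not tested. Pools of flies, extractions and chips have no measured spread here, and lists near 0 cannot be read.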

Other observations

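Genes of protein entry into the endoplasmic reticulum were a list chosen after the values were seen. After wild-type males 20 of 28 were higher (71.4%), with a median of 0.05, against 55.4% of all genes. With the intensity trend removed 17 were higher (60.7%), against 49.2% of all genes. Genes of the nucleolus and ribosome assembly, chosen in the same way, were higher in 14 of 21 (66.7%), with a median of 0.05. Nopp140, a nucleolar chaperone gene, stood at 1.34 with spermless mates and 1.63 with wild-type mates, beside 1.44 in virgins and 1.58 with DTA-E mates, a difference of 0.29. Among genes below the filter, CG9682 alone was past 1.5-fold, at -0.59, with -0.67 after spermless and -1.25 after wild-type males.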
